A study of Mus musculus with 30 samples.

Results

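The normal mouse heart on the day of birth was compared with the heart of mice that had not been bred. The comparison took every library labelled wild type (WT) and postpartum (PP) against every one labelled WT and naive. Each group was deposited as 5 columns of read counts, but the columns of WT PP 1 and WT PP 2 held identical values and were counted as 1 sample, which left 4 WT PP and 5 WT naive libraries, 9 of the 30 samples of the series. WT naive mice were aged to 100 days, and WT PP mice were bred at 65 days and taken at 0 days postpartum. The age of the PP mice at collection is not given in the sources used here, so breeding and any difference in age cannot be told apart. The other genotype of the study, p.S55L, carries a point mutation of CHCHD10, a protein of the mitochondrial intermembrane space. Its 5 naive and 4 PP libraries were fitted alongside. The columns of S55L PP 1 and S55L PP 2 also held identical values and were counted as 1 sample. As in WT, S55L naive mice were aged to 100 days, and S55L PP mice were bred at 65 days and taken at 0 days postpartum. The tissue was heart, and the reads came from the 3′ ends of mRNAs. No label says whether 1 mouse gave 1 library, and the p-values cover only the spread between libraries, which may be technical.

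The heart works harder during pregnancy and enlarges in a reversible way. It burns mainly fatty acids, and the set of genes for their uptake, storage and oxidation is switched on by PPAR-alpha, a nuclear receptor that is activated by fatty acids. Products of this set, among them the uncoupling protein UCP3 and the kinase PDK4, are known to follow the supply of fatty acids to the muscle cell.

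The 5 WT naive libraries held between 1418715 and 2307283 reads on genes, and the 4 WT PP libraries between 1897249 and 2949993. All 9 carried cardiac muscle RNA: Myh6, the chief ventricular myosin of adult mice, was at 13410 to 18670 CPM (read counts scaled to the TMM-adjusted library size). Of 7 mammary epithelial markers 6 had no read, and of 6 lung markers 5 had none. Xist was read in all 9 libraries, at 223 to 370 CPM. Aldoa, a glycolytic gene of most cells, had no read either, so a gene without reads in this table may still be transcribed.

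There were 3 WT libraries that stood apart from the other 6, and all 3 had a first or last row code (A or H). Rows are read here from the letter and number codes in the column names, such as those of a plate, and no label says what the codes mean. These were WT naive 1 and WT PP 1 in row A, and WT PP 5 in row H; the identical pair of columns carries codes of rows A and B, and was taken as row A. Over all genes tested WT PP 1 was closest to WT naive 1 (Spearman's rho 0.963, across genes, which are not independent), and not to another WT PP library. The lipid enzyme gene Dgat2 was at 243, 323 and 291 CPM in these 3 libraries and at 913 to 1132 CPM in the other 6. The mitochondrially encoded mt-Co1 was at 3306, 3994 and 2146 CPM in them and at 7048 to 8479 CPM elsewhere. Plate row and group are also largely confounded, since WT naive filled rows A to E and the WT PP libraries other than WT PP 1 filled rows F to H. The part of the plate row in the results below was not tested, and values without 1 or more of these libraries stand beside results that they move.

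**Figure D1:**
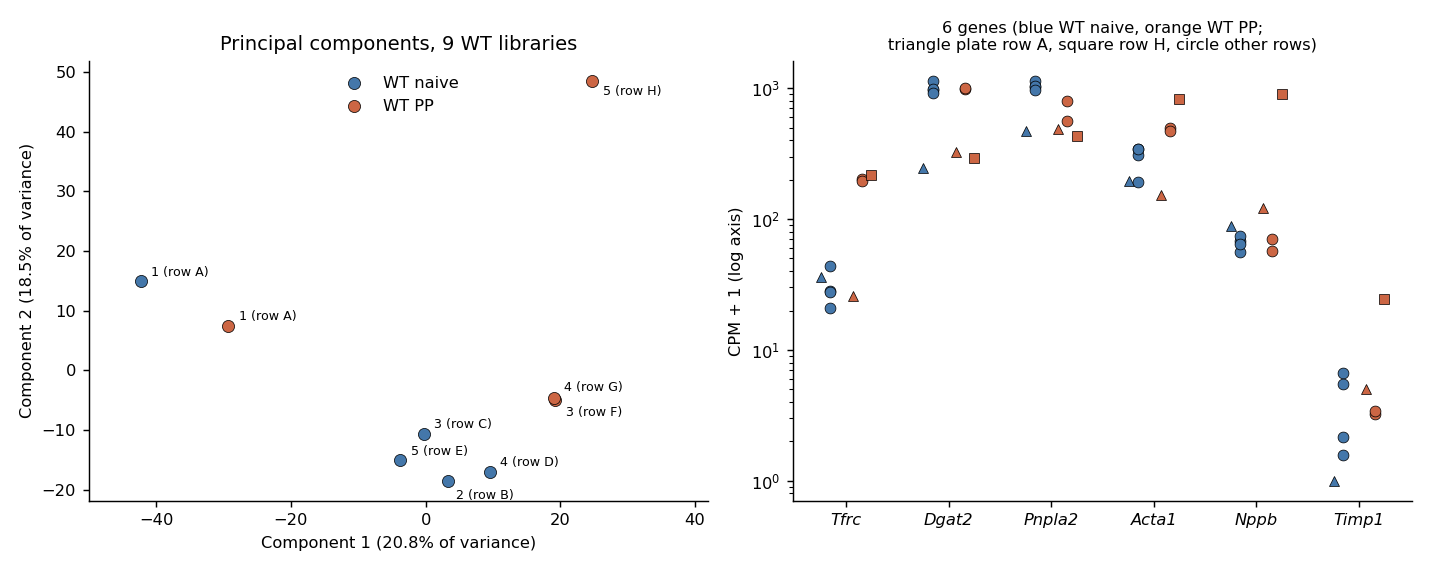
Left, position of each WT library on the first 2 principal components of log2 CPM (20.8% and 18.5% of the variance), with its number and plate row; right, CPM + 1 of 6 genes on a log axis, 1 symbol per library (triangles row A, square row H, circles other rows). Both row A libraries lie on the left and WT PP 5 lies at the top; Dgat2 is low in all 3, Tfrc is low in WT PP 1 alone among the WT PP libraries, and Nppb is high in WT PP 5 alone.

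In the postpartum WT heart 2 genes were lower and none was higher at an adjusted p below 0.05. They were Ucp3, for a mitochondrial carrier protein of muscle, and Lgals4, for galectin-4, a sugar-binding protein best known from gut epithelium. These 2 were 0.0167% of the 11945 genes tested with edgeR's quasi-likelihood test and Benjamini-Hochberg adjustment; for rises the share called was 0%. At an unadjusted p below 0.05 there were 388 genes higher (3.25%) and 368 lower (3.08%), 756 in all, where 597.2 would be expected if no gene differed. This count rested on single libraries: it was 466 of 12013 genes tested without WT PP 5 and 1322 of 12174 without WT PP 1. DESeq2, run on the same counts, called 5 genes higher (0.0419%) and 7 lower (0.0586%). Without WT PP 1 edgeR called 6 higher (0.0493%), namely Tfrc, Tubb5, Lcp1, Myl1, Tubb4b and Rnf126, and 4 lower (0.0329%), among them Ucp3, Lgals4 and Hsd17b11. Without all libraries in rows A and H, a choice made after seeing the data, it called 5 higher (0.0395%) and 1 lower (0.00791%). All 4 WT PP libraries lay above all 5 WT naive libraries for 107 genes (0.896%), and below them for 117 (0.979%), together 224 (1.88%). Of the 126 possible assignments of these libraries to the groups, 1 gives each of these orders, so a gene without overlap is not by itself a result.

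**Figure D2:**
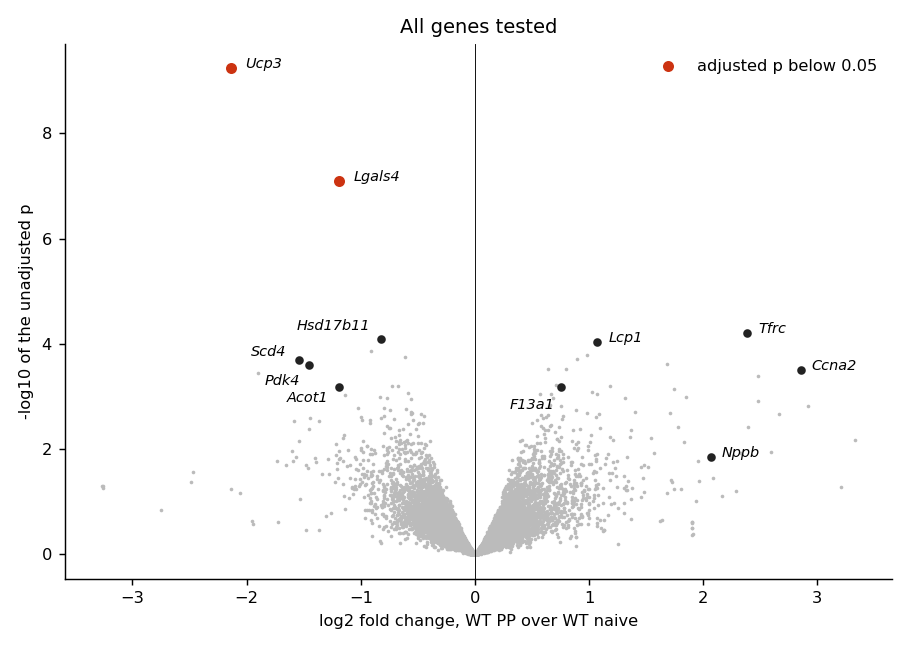
Each point is 1 gene tested, with the log2 fold change of WT PP over WT naive on the x axis and −log10 of the unadjusted p on the y axis. The 2 genes past the adjusted threshold, Ucp3 at −2.14 and Lgals4 at −1.19, stand above all others; the other labelled genes did not pass.

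The sequences before the starts of these 2 genes are shown because they are the genes that were called. They are the 250 bases before each RefSeq gene start in GRCm38.p6, plus strand, at chr7:100472741-100472990 for Ucp3 and chr7:28833544-28833793 for Lgals4. Capitals mark AGGTCA, the half-site that nuclear receptors such as PPAR-alpha are known to bind in pairs.
Ucp3: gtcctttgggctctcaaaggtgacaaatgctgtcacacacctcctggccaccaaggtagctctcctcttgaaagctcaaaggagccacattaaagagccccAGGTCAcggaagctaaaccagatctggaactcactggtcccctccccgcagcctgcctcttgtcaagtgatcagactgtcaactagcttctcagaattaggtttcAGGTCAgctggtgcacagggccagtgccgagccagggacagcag
Lgals4: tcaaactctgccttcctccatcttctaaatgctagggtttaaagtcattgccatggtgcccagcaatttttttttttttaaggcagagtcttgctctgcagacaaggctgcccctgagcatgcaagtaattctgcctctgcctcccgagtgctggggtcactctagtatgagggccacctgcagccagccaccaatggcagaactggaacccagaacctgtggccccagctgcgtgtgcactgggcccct
The Ucp3 window held 2 half-sites, which began 149 and 44 bases before the start, and the Lgals4 window held none on either strand. A half-site on either strand was found in 14% of the 32851 RefSeq windows of the same length. A direct repeat of this half-site with any 1 base (N) between the copies, searched on both strands, was in neither window and in 11 windows in all (0.0335%). A match of letters is not evidence of binding.

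Ucp3 was at 75.7, 49.8, 60.8, 57.4 and 39.6 CPM in the WT naive libraries. In the WT PP libraries it was at 15.96, 10.6, 12.1 and 12.2 CPM. Every postpartum library lay below every naive one, and the lowest naive library was more than 2 times the highest postpartum library. The means were 56.7 ± 13.4 (SD, n = 5) and 12.7 ± 2.28 CPM (SD, n = 4), a 4.402-fold lower level. The log2 fold change was −2.14 (SE 0.23, 95% interval −2.61 to −1.67, adjusted p = 6.96e-06), and it was −2.28 without WT PP 1 and −2.17 without all libraries in rows A and H. Ucp2, the related uncoupling protein of immune and other cells, had a log2 difference of −0.12 (SE 0.45, edgeR adjusted p = 0.979), which was 0.16 without WT PP 1.

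Lgals4 was at 106, 74.3, 96.5, 84.9 and 88.1 CPM in the naive libraries. After birth it was at 33.7, 42.4, 47.7 and 35.5 CPM. The ranges did not overlap, and the gap between them was wider than the range of the postpartum group. The log2 fold change was −1.19 (SE 0.16, 95% interval −1.53 to −0.85, adjusted p = 0.00048), a 2.28-fold lower level. Without the libraries in rows A and H the value was −0.92 and the call was lost (adjusted p = 0.0698), with 2 postpartum libraries left. Some mouse strains carry a near-identical galectin gene beside it, so the reads counted for Lgals4 may come from more than 1 copy.

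**Figure D3:**
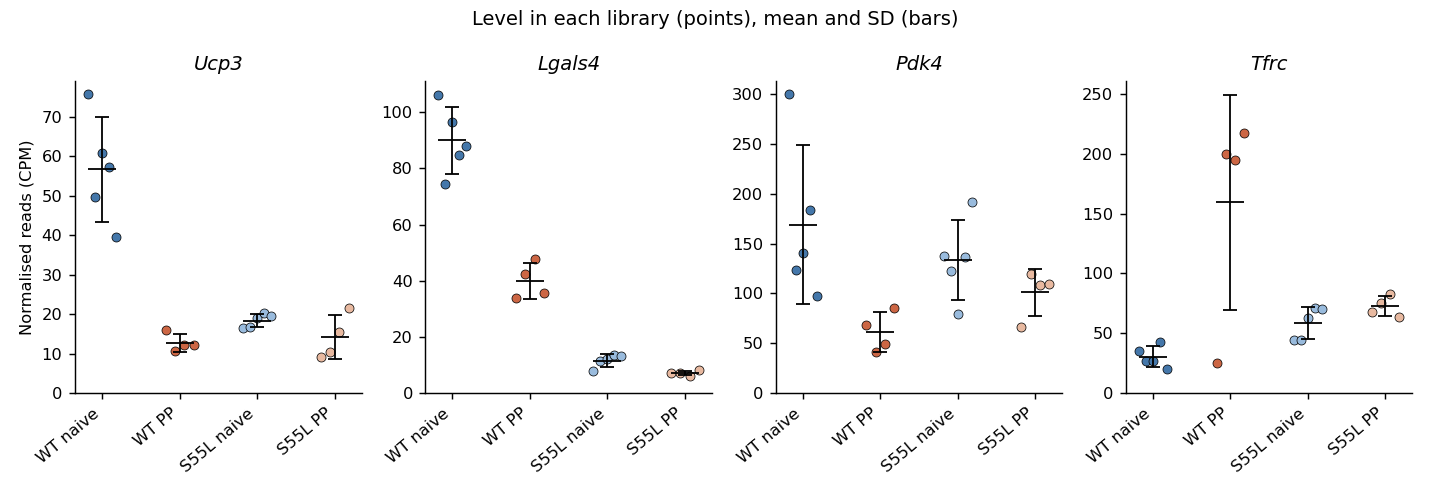
CPM of Ucp3, Lgals4, Pdk4 and Tfrc in each library (points) with mean and SD (bars) for WT and, for comparison, S55L mice. The WT naive and WT PP points of Ucp3, Lgals4 and Pdk4 do not overlap, and 3 of 4 WT PP points of Tfrc lie near 200 CPM with the fourth at 25.03.

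Ucp3 is 1 of 26 tested genes on a list of PPAR-alpha targets and the fuel switch of the heart, and the only one called. On this list 22 genes had a log2 fold change below 0 and 3 above, with a median of −0.24, beside −0.0047 over all genes tested. An unadjusted p below 0.05 was reached by 12 members, all lower, and 5 members had every postpartum library below every naive one. Over all genes tested these shares were 3.08% and 0.979%. No value here was adjusted over the list, and the list was written with earlier results of these data known. Of its 30 members, 4 did not pass the filter on low counts, among them Cpt1b with 1 read in the 9 libraries. Fgf21, tested through the S55L libraries, had no read in WT. Without WT naive 1 and WT PP 1 the median was −0.15 with 19 members below 0, and without all libraries of rows A and H it was −0.22 with 24 below 0.

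Pdk4, a kinase that turns off pyruvate dehydrogenase and so spares glucose, was at 300.3, 123, 140, 184 and 97.0 CPM in the naive and at 68.2, 40.8, 49.5 and 85.7 CPM in the postpartum libraries. All postpartum libraries lay below all naive ones, and WT naive 1 was the highest. Its log2 fold change was −1.46 (SE 0.32), which did not pass (adjusted p = 0.25) with edgeR and passed in DESeq2 (adjusted p = 0.00214). Angptl4, a secreted inhibitor of lipoprotein lipase, had −1.46 with a wide error (SE 0.58, adjusted p = 0.714), −2.36 without WT PP 5 and −0.94 without both row A libraries. Its levels overlapped, at 8.98 to 26.3 CPM in naive and 2.18 to 15.1 CPM in postpartum libraries.

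Acot1 and Acot2 encode thioesterases that split fatty acyl-CoA in the cytosol and in mitochondria. Acot1 was at 13.5 to 27.3 CPM in naive and 6.10 to 11.97 CPM in postpartum libraries (log2 fold change −1.19 with SE 0.31, adjusted p = 0.336). Acot2 was at 252 to 372 CPM in naive and 154 to 245 CPM in postpartum libraries (−0.59, SE 0.16, adjusted p = 0.353). Neither passed, although neither overlapped between groups. The genes are near-identical neighbours, so reads may be divided between them or left out. Mlycd, for malonyl-CoA decarboxylase, which relieves the block on fatty acid entry into mitochondria, was at 128 to 158 CPM in naive and 84.3 to 121 CPM in postpartum libraries (−0.50, SE 0.17, adjusted p = 0.608).

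Genes of fat storage and release had lower postpartum values, and some of them were also low in WT naive 1. Pnpla2, for the first lipase of stored triglyceride, was at 466, 1135, 1023, 1035 and 974 CPM in the naive libraries and 485, 559, 802 and 433 CPM in the postpartum ones. WT naive 1, in row A, was as low as the postpartum libraries. The log2 fold change was −0.70 (SE 0.23, adjusted p = 0.622) over all libraries and −0.60 (SE 0.15, adjusted p = 0.224) without rows A and H. Lipe, for hormone-sensitive lipase, had −0.75 (adjusted p = 0.454) and −0.81 in those same fits. Plin4 and Plin5, which coat lipid droplets, had −0.57 and −0.46 over all libraries but −0.35 and −0.19 without rows A and H, and neither passed. Of 18 tested genes of lipid droplets and lipases, none was called, 5 were lower at an unadjusted p below 0.05 and 15 had values below 0 (median −0.18). Over all genes tested 3.08% were lower at that p. The list shares members, Pnpla2 among them, with that of the PPAR-alpha targets, so their counts are not separate.

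**Figure D4:**
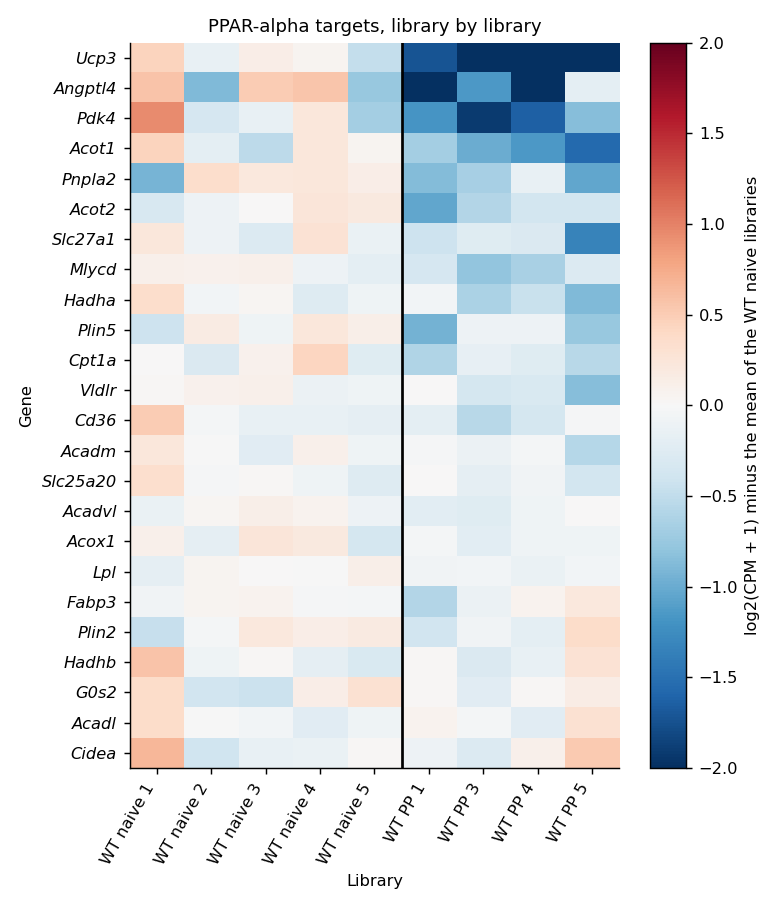
Each row is a PPAR-alpha target that was tested and has reads in WT, and each column a WT library; colour is log2(CPM + 1) minus the mean of the WT naive libraries, with values beyond 2 in either direction shown at the end of the scale. Ucp3, Pdk4 and Acot1 are blue in all 4 WT PP libraries, while Pnpla2 is blue in WT naive 1 as well.

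Genes of fatty acid uptake and beta-oxidation had small differences, most of them lower. Their summed level was 27610 to 28320 CPM in naive and 24420 to 27460 CPM in postpartum libraries, without overlap. Of 31 tested genes of fatty acid uptake and oxidation none was called and 25 had values below 0, with a median of −0.13. Beside Acot2, 3 of them (Hadha, Slc27a1 and Cpt1a) were lower at an unadjusted p below 0.05, as were 3.08% of all genes tested. All of these are also on the list of PPAR-alpha targets and were counted there, so the counts are not separate. Hadha, for a subunit of the mitochondrial trifunctional protein, was at 1116 to 1694 CPM in naive and 725 to 1284 CPM in postpartum libraries (log2 fold change −0.49 with SE 0.22, adjusted p = 0.742). Cd36, for the fatty acid transporter, had −0.29 (SE 0.15), with WT naive 1 at 835 CPM and the other 4 naive libraries at 575 CPM or less. Abundant transcripts were close between groups: Lpl, for lipoprotein lipase, had −0.08 (SE 0.16) and Fabp3, for the fatty acid binding protein of heart, −0.07 (SE 0.17).

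Some other lipid genes outside this list had lower postpartum values but did not pass in edgeR with all libraries. Scd4, for a fatty acid desaturase of heart, was at 20.5 CPM on average in naive and 7.01 CPM in postpartum libraries (log2 fold change −1.54 with SE 0.35, adjusted p = 0.238; DESeq2 0.00868). Hsd17b11, for a dehydrogenase found on lipid droplets, was at 52.97 and 30.1 CPM on average (−0.83, SE 0.18, adjusted p = 0.224), and was called without WT PP 1 (adjusted p = 0.0371). Gpam, for the first step of triglyceride synthesis, had −0.56 (SE 0.15, adjusted p = 0.353). None of the 3 overlapped between groups, as was true of 0.979% of all genes tested in this direction. Scd4 shares sequence with the other desaturase genes, so its reads are less certain.

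Of the genes with higher postpartum values the one with the lowest p was Tfrc, the transferrin receptor that brings iron into cells. Whether it was called rested on which libraries were used, while its log2 fold change was 2.11 to 2.83 over the 25 alternatives. Tfrc was at 35.03, 26.9, 26.9, 43.02 and 19.8 CPM in the naive libraries. In the postpartum group WT PP 1 was at 25.03 CPM, within the naive range, and the other 3 were at 199.8, 194.5 and 217.7 CPM. With all 9 libraries the log2 fold change was 2.38 (SE 0.44) and did not pass (adjusted p = 0.224). Without WT PP 1 it was 2.75 (SE 0.20) and was called (adjusted p = 6.62e-10); without WT PP 5 it was 2.18 (adjusted p = 0.437). Alas1, for the first step of heme synthesis outside red cells, followed the same libraries, at 88.1 to 123 CPM in naive, 107 CPM in WT PP 1 and 154, 168 and 173 CPM in the other postpartum libraries (log2 fold change 0.57 with SE 0.15, adjusted p = 0.353), and it was called without rows A and H (0.76, adjusted p = 0.0198). Of 17 tested genes of iron, heme and transferrin none was called, and 10 had values above 0.

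Red cell RNA in the tissue also set WT PP 1 apart. Hemoglobin genes took 0.0841% of its reads on genes and 0.38% to 0.596% in the other postpartum libraries, beside 0.255% to 0.498% in naive ones. The group means, 0.355% ± 0.105 (SD, n = 5) and 0.375% ± 0.214 (SD, n = 4), were not told apart (exact permutation test over 126 assignments, two-sided p = 0.889; the smallest possible p is 0.0159). Hbb-bs, the adult beta globin, was at 617 CPM in WT PP 1 and at 2011 to 5017 CPM in the other 8 libraries. The part of red cell RNA in the Tfrc result was not tested.

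Macrophage markers had higher postpartum values as a list, and no single marker passed the threshold. All 12 marker genes were tested, all had a log2 fold change above 0 (median 0.65), 7 had an unadjusted p below 0.05 and 3 had all postpartum libraries above all naive ones. Over all genes tested 3.25% were higher at that p and 0.896% had all postpartum libraries above. The summed level of the markers was 331 to 418 CPM in the naive libraries and 469 to 590 CPM in the postpartum libraries, without overlap. In whole tissue, more cells of a type and more RNA per cell cannot be told apart. Without rows A and H the median was 0.68 with 11 above 0 and 1 gene, C1qc, called.

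F13a1, for a coagulation factor subunit made by resident macrophages, was at 23.8 to 41.0 CPM in naive and 43.9 to 72.8 CPM in postpartum libraries (log2 fold change 0.76 with SE 0.20, adjusted p = 0.336). C1qc, for a chain of complement C1q, was at 48.9 to 67.3 and 67.8 to 117 CPM (0.67, SE 0.18, adjusted p = 0.353). Both genes had separate groups by a narrow margin. Mrc1, the mannose receptor, was at 9.90 to 18.03 and 13.3 to 25.4 CPM, with overlap (0.64, SE 0.21, adjusted p = 0.517). Adgre1, a surface marker of mouse macrophages, also had separate groups (0.85, SE 0.29, adjusted p = 0.627), and Lyz2, for lysozyme, had 0.37 (SE 0.18, adjusted p = 0.773). Lcp1, for the actin-bundling protein of white cells, was not on the list and was at 28.1 CPM after birth beside 13.3 CPM (1.07, SE 0.23, adjusted p = 0.224); it was called without WT PP 1 (adjusted p = 0.0315) and in DESeq2 (adjusted p = 0.0135).

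Markers of the other main cell types of the heart lay on both sides of 0. No neutrophil or T and NK cell marker passed the filter on low counts, and of 6 monocyte markers 2 did, with values of 0.93 and 1.05, neither called. The summed endothelial markers were at 1448 to 1712 CPM in naive and 1335 to 1577 CPM in postpartum libraries, and 5 of 11 tested had values above 0. Ventricular cardiomyocyte markers summed to 67750 to 91900 CPM and 69080 to 89830 CPM, with a median log2 fold change of 0.03. Fibroblast markers summed to 2098 to 2800 and 2311 to 2912 CPM, with 9 of 12 above 0 and none called. Genes of MHC class II, with which antigen-presenting cells display peptides, had 5 of 5 tested values below 0 (median −0.31), none of them called.

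Genes of the extracellular matrix were mostly higher in value without a call. Of 40 tested, 33 were above 0 (median 0.26), 8 were higher at an unadjusted p below 0.05, and 3 had all postpartum libraries above all naive ones. Over all genes tested these last 2 shares were 3.25% and 0.896%. Serpinh1, the chaperone of collagen, was at 42.7 to 60.8 CPM in naive and 64.2, 70.4, 82.7 and 128 CPM in postpartum libraries (log2 fold change 0.65 with SE 0.19, adjusted p = 0.435). WT PP 5 was the highest, and without it the value was 0.39. Col8a1, for a short-chain collagen, had 1.02 (SE 0.27, adjusted p = 0.353) and 0.66 without WT PP 5, and Col1a1, the main fibrillar collagen, had 0.55 (SE 0.24, adjusted p = 0.74) and 0.30. Without that 1 library the median of the list was 0.13 in place of 0.26, and 29 of 40 members were above 0.

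**Figure D5:**
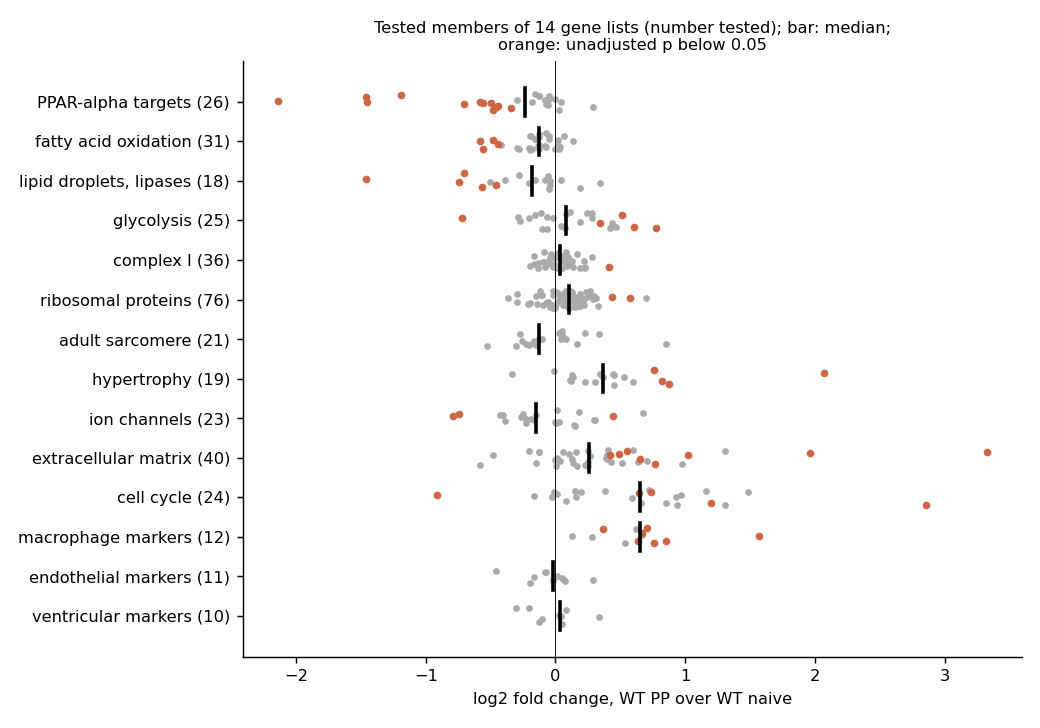
Log2 fold change of WT PP over WT naive for each tested member of 14 gene lists, 1 point per gene, with the number tested in brackets and a bar at the median; orange points had an unadjusted p below 0.05. PPAR-alpha targets lie mostly left of 0 and macrophage markers all right of it, while complex I and ventricular markers centre near 0.

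Genes of cell division had mostly higher values, many at low levels. Of 24 tested, 20 were above 0 (median 0.65), 4 of these had an unadjusted p below 0.05, and none was called. Over all genes tested 3.25% were higher at that p. Ccna2, the cyclin of DNA replication, was at 0 to 1.17 CPM in naive and 1.81 to 7.26 CPM in postpartum libraries (log2 fold change 2.86 with SE 0.69, adjusted p = 0.25). The replication helicase gene Mcm6 was at 4.12 to 8.98 CPM and at 7.62, 12.3, 12.1 and 12.2 CPM, where WT PP 1 was again within the naive range (0.73, SE 0.27, adjusted p = 0.665). Mki67, the common marker of cycling cells, had 1.48 with an SE of 0.75 (adjusted p = 0.779). Cenpf, for a protein of the kinetochore, had a value in the other direction, at 41.5 to 102 CPM and 17.2 to 48.6 CPM (−0.92, SE 0.27, adjusted p = 0.454). The tubulin gene Tubb5 was at 123 CPM on average in naive and 198 CPM in postpartum libraries (0.69, SE 0.19, adjusted p = 0.353). Tubb5 and Tubb4b were called without WT PP 1 (adjusted p = 0.0315 and 0.0345), and tubulin genes share near-identical sequence.

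Markers of pathological growth of the heart were not called. Nppb, which encodes B-type natriuretic peptide and is released on wall stretch, was at 54.99 to 87.1 CPM in naive libraries. After birth it was at 121, 69.2, 55.6 and 906.9 CPM, so WT PP 5 alone was far above the rest. The log2 fold change was 2.07 (SE 0.74, adjusted p = 0.674), and without WT PP 5 it was 0.26 (SE 0.49). Rcan1, an inhibitor and target of calcineurin, showed the same library, at 170 CPM in WT PP 5 and 39.2 to 54.4 CPM in the other postpartum libraries (0.88 over all libraries and 0.15 without WT PP 5). Acta1, the skeletal actin that is re-expressed in stressed hearts, was at 190 to 342 CPM in naive and 152, 499, 469 and 827 CPM in postpartum libraries (0.82, SE 0.36, adjusted p = 0.758). WT PP 1 was the lowest of all 9 and WT PP 5 the highest, and without WT PP 5 the value was 0.44. Nppa, for atrial natriuretic peptide, had 0.53 (SE 0.54) over all libraries and −0.03 without WT PP 5. Myh7, the slow myosin, had 0.45 (SE 0.42) and 0.09. Of 19 tested genes of hypertrophy and heart failure 17 were above 0 (median 0.36), but without WT PP 5 the median was 0.07 with 14 above 0.

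Contractile and energy genes were not called. Myh6 had a log2 fold change of 0.04 (SE 0.16), and of 21 tested genes of the adult sarcomere none had an unadjusted p below 0.05. In 2 of them, Myl2 (−0.30, SE 0.16) and Tcap (−0.52, SE 0.30), all postpartum libraries lay below all naive ones, as in 0.979% of all genes tested. Ckmt2, the mitochondrial creatine kinase, was at 1847 to 2102 CPM in naive and 2414 to 2875 CPM in postpartum libraries, without overlap (0.40, SE 0.14, adjusted p = 0.627). Casq2, the calcium store protein, had 0.38 (SE 0.14) and the sodium-calcium exchanger gene Slc8a1 0.40 (SE 0.17), with adjusted p of 0.674 and 0.719. Without WT PP 5 the value of Slc8a1 was 0.16, and without both row A libraries 0.65. Myl1, for a myosin light chain of fast skeletal muscle, was at 25.4 CPM on average in naive and 46.9 CPM in postpartum libraries (0.89, SE 0.21, adjusted p = 0.238), and was called without WT PP 1 (adjusted p = 0.0334) and in DESeq2 (adjusted p = 0.037).

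Ion channel and receptor genes included several lower values, none called. Scn4b, for a sodium channel beta subunit, was at 23.7 to 37.1 CPM in naive and 13.4 to 22.2 CPM in postpartum libraries, without overlap (log2 fold change −0.74 with SE 0.24, adjusted p = 0.517). Kcnd2, for a channel of the transient outward potassium current, had −0.79 (SE 0.33, adjusted p = 0.719), and the related Kcnd3 had −0.16 (SE 0.24; −0.40 without WT PP 1). Kcnq1, for a slow repolarising channel, had 0.44 (SE 0.18, adjusted p = 0.687). Rgs2, which damps signals of Gq-coupled receptors, was at 128 to 180 and 64.2 to 118 CPM, without overlap (−0.68, SE 0.18, adjusted p = 0.336), and had −0.35 without rows A and H. The alpha-1 adrenergic receptor genes Adra1a and Adra1b, which signal through Gq, had −0.98 (SE 0.36) and −0.61 (SE 0.22), both with an adjusted p of 0.665.

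Hormone axes of pregnancy had values on both sides of 0 without a call. Of 14 tested genes of prolactin, growth hormone and STAT5, 3 were higher and 1 lower at an unadjusted p below 0.05 (3.25% and 3.08% of all genes tested). Cyp2d22, a cytochrome P450 gene on this list, was at 11.9 to 29.4 and 10.6 to 11.8 CPM (log2 fold change −0.83 with SE 0.25, adjusted p = 0.454). Cish, a feedback inhibitor induced by STAT5, was at 50.9 to 153 CPM in naive and 95.8 to 165 CPM in postpartum libraries (0.54, SE 0.27, adjusted p = 0.773). Igf1, a growth factor under growth hormone control, had 0.73 (SE 0.27, adjusted p = 0.665), and the cyclin gene Ccnd1 had 0.44 (SE 0.16, adjusted p = 0.643). The prolactin receptor gene Prlr had −0.30 (SE 0.24). Esr1, the estrogen receptor, was at 0 to 4.23 CPM in all libraries. Vegfa and Stat3, both studied in heart disease of late pregnancy, had 0.23 (SE 0.16) and 0.09 (SE 0.17), and Vegfa had 0.06 without WT PP 5.

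Clock genes matter here because the hour of collection is not given in the sources used here. Of 19 tested, 14 had values below 0 (median −0.21) and none was called. Nfil3, a repressor of the clock output, was at 1.98 to 7.21 CPM in naive and 9.79 to 13.99 CPM in postpartum libraries, without overlap (log2 fold change 1.32 with SE 0.36, adjusted p = 0.353). Dbp, a strongly rhythmic output gene, was at 154 to 197 CPM in naive libraries and at 193, 128, 135 and 57.7 CPM in postpartum ones (−0.46, SE 0.50). Its value was −0.21 without WT PP 5 and −0.74 without WT PP 1. The orphan receptor gene Nr4a1, an immediate early gene, was at 21.8 to 151 and 8.37 to 34.8 CPM (−1.56, SE 0.56, adjusted p = 0.674).

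Mitochondrial and ribosomal transcripts as classes overlapped between the groups. Mitochondrially encoded genes took 22.3% ± 1.85 (SD, n = 5) of reads on genes in naive and 20.9% ± 3.55 (SD, n = 4) in postpartum libraries (exact permutation test, two-sided p = 0.492, 0.738 after adjustment over 3 shares). WT PP 5 was the lowest of the 9, at 16.8%. The difference of −1.395 percentage points was −0.0367 without WT PP 5 and −2.645 without WT PP 3. Cytosolic ribosomal protein genes took 2.30% ± 0.224 (SD, n = 5) and 2.49% ± 0.205 (SD, n = 4) (exact permutation test, two-sided p = 0.238, adjusted 0.714). Of 36 nuclear genes of complex I and 42 of complexes II to V none was called, with medians of 0.03 and 0.06. Chchd10 itself, the gene mutated in the other genotype, had a log2 difference of 0.33 (SE 0.20, adjusted p = 0.832), with WT PP 5 at 5244 CPM and the other 8 libraries at 2355 to 3151 CPM; without WT PP 5 the value was 0.04. The gene for the master regulator of mitochondrial number, Ppargc1a, had 0.07 (SE 0.16).

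The same contrast in S55L hearts called no gene in either direction (0% of those tested), and no gene passed the test of the difference between the genotypes (0%), while 444 had an unadjusted p below 0.05 for that difference. S55L PP against S55L naive gave 747 genes at an unadjusted p below 0.05. Ucp3 came closest: it was at 16.5, 16.6, 18.95, 20.2 and 19.4 CPM in S55L naive libraries and 9.22, 10.3, 15.35 and 21.5 CPM in S55L PP libraries. The S55L naive libraries lay below all WT naive libraries and just above the WT postpartum ones. All S55L naive libraries have codes of column 2, and all WT libraries but WT PP 1 of column 1. Genotype and plate column are thus largely confounded for such levels. Reads on genes were 66.3% to 69.2% in S55L and 58.3% to 61.6% in WT libraries. The log2 fold change of Ucp3 was −0.39 (SE 0.21, adjusted p = 0.811) in S55L, and the difference from WT was 1.75 (SE 0.31, adjusted p = 0.0736). That difference was called in 6 of the 23 alternative analyses that fitted it, including DESeq2. Lgals4 was at 6.19 to 8.11 CPM in S55L PP and 7.71 to 13.4 CPM in S55L naive libraries (−0.69, SE 0.20), with a difference between genotypes of 0.50 (SE 0.26, adjusted p = 0.997). Every S55L library lay far below every WT library for Lgals4, and the cause was not tested. Of the genes that averaged 5 CPM or more in WT, the next by p were Alas2, the heme enzyme of red cells (−0.58 in WT and 1.48 in S55L), the endothelial factor gene Sox18 (0.61 and −1.31) and Scd4, each with an adjusted p of 0.997. Tfrc was called for this difference in some alternatives only. These were the fits without WT PP 1, without both row A libraries, without rows A and H, and with the plate column as a term.

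The spread between libraries limited how precisely a difference could be measured. Among the 2597 genes that averaged 50 CPM or more, the median 95% half-width of a log2 fold change was 0.34, or 1.27-fold, while below 5 CPM the median SE was 0.47. These intervals are per gene and not adjusted over the genes tested. A difference wider than that could still miss the adjusted threshold, as did Pdk4 at −1.46.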

How the data were processed

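Hearts of 9 WT libraries (5 naive, 4 PP) were compared within a fit of 18 libraries that included S55L. From 500 ng of RNA, 3′ mRNA libraries were made with the QuantSeq FWD kit, per the labels' protocols. The authors deposited raw read counts per gene, made with Trimmomatic 0.39, STAR 2.7.0f and HTSeq 0.6.1 on GRCm39.p6, per the submitters' processing notes, which also name DESeq2 3.21. The annotation release, strand setting and counting mode are not given in the sources used here, so genes that overlap others, lie antisense or have close copies are uncertain. The HTSeq summary lines were left out of the totals: 24.7% to 27.3% of reads aligned to several places, 5.65% to 10.1% fell on no gene and 5.61% to 7.08% on several genes. Of 78258 gene IDs 51487 had a symbol in GENCODE M21 (99.45% of reads on genes). Since that annotation and the RefSeq windows are on another build, coordinates are those of GRCm38.p6 and not of the files.

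Genes were filtered with filterByExpr by group, scaled by TMM and tested with edgeR 4.0.16 (robust quasi-likelihood, R 4.3.3), with Benjamini-Hochberg adjustment over 11945 genes and a threshold of 0.05. SE is the log2 fold change over the square root of F; the common biological coefficient of variation was 0.199. Alternatives used DESeq2 1.42.0 and limma 3.58.1. The test was also run on simulated counts. Shares of reads were compared by exact permutation.

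The comparison, the 71 gene lists and the rule for named genes were chosen with earlier results of these data known. The rule takes called genes by size and by p, up to 4 called members of each list or its 2 most abundant, a panel of genes and the 4 genes nearest to a difference between genotypes. All other named genes, such as Tfrc, Acot1, Scd4 and F13a1, were chosen after their values were seen. A few members of the lists are not reported here by name.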

Additional observations from a re-analysis of the deposited data

Results flagged for a closer look

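Of 234 groups of library values checked for 1 library far from the rest of its group, 19 were flagged. For normal values the rule flags about 1 in 20. Many of the genes checked were named after their values were seen, so the number flagged cannot be set against that rate. Most of the flags lay in outer plate rows, and the part of the plate row was not tested.

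WT naive 1 lay below the other 4 naive libraries for Pnpla2 (466.2 CPM against 974.2 to 1135), Dgat2 (243.1 against 912.9 to 1132), mt-Co1 (3306 against 7297 to 8479) and C1qb (13.91 against 33.93 to 40.01). It lay above them for Cd36 (835 CPM against 574.8 at most), Mrc1 (18.03 against 9.896 to 11.7) and Xist (370.4 against 232.3 to 267.3).

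WT PP 1 stood below the other 3 postpartum libraries for Tfrc (25.03 CPM against 194.5 to 217.7) and Mcm6 (7.617 against 12.08 to 12.28), and above them for Xist (363.4 against 223.1 to 241), where its level was close to that of WT naive 1.

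WT PP 5 stood above the other 3 for Nppb (906.9 CPM against 55.56 to 121.1), Rcan1 (170 against 39.17 to 54.36), Timp1 (23.31 against 2.233 to 3.99) and Gdf15 (2.869 against 0.5582 to 0.7254).

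The remaining flags were in inner rows: Scd4 in WT PP 3 (3.349 CPM against 7.889 to 8.455), Ccnd1 in WT PP 4 (93.01 against 107.9 to 110.6), Serpinh1 in WT naive 3 (42.7 against 55.64 to 60.78), Fkbp5 in WT naive 2 (22.86 against 7.211 to 10.33) and Tnc in WT naive 4 (0.5736 against 0 in the others).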

How the results depend on the processing

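Ucp3 was called lower in all 25 alternatives and Lgals4 in 24, the exception being the fit without rows A and H. Counts of genes called higher and lower, with the count for the difference between genotypes, were 14, 7 and 5 with no filter on low counts, 5, 7 and 1 with DESeq2, and 14, 7 and 2 with the plate column as a term, which among WT libraries sets only WT PP 1 apart. With the outer plate row as a term 2 genes differed between genotypes. Leaving out 1 library at a time gave 0 to 6 higher, 2 to 4 lower and 0 to 2 for the difference; the highest counts were without WT PP 1, and without WT naive 5 they were 1, 2 and 1. Chosen after seeing the data, the fit without both row A libraries gave 2, 3 and 1, the fit without rows A and H gave 5, 1 and 2, and the WT groups alone without WT PP 1 gave 11 and 9. The cause was not tested. The other settings gave 0, 2 and 0: DESeq2 size factors, total counts, limma voom, WT groups alone (no test of the difference), mitochondrially encoded or hemoglobin genes removed, all deposited columns, and thinned counts. No label says that the numbers in the titles pair the samples. Libraries of the same number had correlations of r = 0.356, 0.0478, 0.0904 and −0.0612 over 4 pairs, too few to settle it. With the number as a replicate block the counts were 0, 2 and 0 as well. The difference in the hemoglobin share, 0.01925 percentage points higher after birth, ranged from −0.05444 to 0.1161 when 1 library was left out and was −0.03883 with all deposited columns. Without rows A and H the log2 fold changes of Nppb and Timp1 were −0.031 and −0.273, beside 2.07 and 1.96. At this depth genes below 5 CPM had wide errors, and a p that misses the threshold does not show equal levels.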

Other observations

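Genes of glucose use had values on both sides of 0, none called. Of 25 tested genes of glycolysis, glucose uptake and lactate, 15 had values above 0 (median 0.08), with 4 higher and 1 lower at an unadjusted p below 0.05 (3.25% and 3.08% of all genes tested). Pfkfb2, for the heart form of the enzyme that makes the main activator of glycolysis, was at 3.44 to 10.3 CPM in WT naive and 7.89 to 16.2 CPM in WT PP libraries (log2 fold change 0.77, SE 0.29, edgeR adjusted p = 0.669). Ldha, for a lactate dehydrogenase subunit, was at 972 CPM in WT PP 5 and 326 to 474 CPM in the other 3 postpartum libraries, and its log2 fold change of 0.42 was 0.01 without WT PP 5. The insulin-responsive glucose transporter gene Slc2a4 had 0.08 (SE 0.16).

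Of 12 tested genes of the acute phase and inflammation all had values above 0 (median 0.64) and none was called. Without WT PP 5 the median was 0.42 with 11 above 0, and without rows A and H 10 were above 0. Ccl7, for a chemokine that draws monocytes, was at 0.49 to 1.75 CPM in WT naive libraries, and at 0.73, 5.02, 2.42 and 21.5 CPM in WT PP libraries (log2 fold change 2.60, SE 0.91, adjusted p = 0.665 in edgeR). WT PP 5 was the highest, and without it the value was 0.95. The antioxidant enzyme gene Nqo1, a target of NRF2, was at 20.1 to 31.8 CPM in naive and 15.06 to 25.03 CPM in postpartum libraries, with overlap (−0.57, SE 0.21, adjusted p = 0.665).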
